A study of Mus musculus with 3 samples.

Results

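Small leucine-rich proteoglycans (SLRPs) are a family of 10 mouse genes in this account: Dcn, Bgn, Aspn, Lum, Fmod, Omd, Kera, Prelp, Ogn and Podn. They were chosen by family membership after levels on these same arrays had been seen, so every count over the family is a description and none carries a test. Probes were matched to genes through their RefSeq accessions. Among 20142 genes with a named probe, 9 of the 10 members were found, each by 1 probe, and Prelp was not analysed here. RNA came from 3T3-L1 cells, a clonal mouse fibroblast line widely used to study fat cell formation, and was hybridised to 1 single-colour Agilent array for each of 3 times: day 2, day 8 and day 20 after adipogenic differentiation was induced. No genotype or drug sets the groups apart, the agents used for induction are not given in the sources used here, and uninduced cells are not among the samples. With 1 array a day no difference has a replicate check, so no p-value is given anywhere.

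SLRPs are secreted proteins built around a run of leucine-rich repeats, most of which carry chondroitin, dermatan or keratan sulfate chains. They bind fibrillar collagen and limit or guide the growth of its fibrils, and several also bind growth factors of the TGF-beta family or signal through cell surface receptors. In fat, the cells that surround themselves with this matrix are mainly preadipocytes and other stromal fibroblasts, while maturing adipocytes replace a fibrillar matrix with a basement membrane.

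A value below is the log2 of a probe's background-subtracted intensity, averaged over its spots, minus the log2 of the 75th percentile of all non-control probes on that array. That percentile was an intensity of 662 on day 2, 636 on day 8 and 927 on day 20, with 55.3% to 56.9% of spots well above background and 0 saturated. All 3 arrays lay on 1 slide and were scanned on 1 day. A difference is called measured where the probe was well above background on both days; otherwise a lower bound is given, from the lowest value that was well above background on the dim day (-5.70 on day 2). Some genes not well above background on day 2 had higher values than that, so the bound is not a strict limit. Each difference carries a technical SD, taken from probes printed 10 times on the array. This SD covers spots on an array but not cultures or labelling. A difference of 1 on the log2 scale, 2-fold, is the size used for counts. Adipocyte markers were well above background for 9 of 10 genes on day 2 and for 10 of 10 on days 8 and 20, with a summed level of 636, 1593 and 1087 times the 75th percentile. On day 8 against day 2, 6 of 9 measured markers were at least 2-fold higher and 0 lower, against 13.8% and 12.9% of all genes. That difference was 6.46 for Cfd and 3.83 for Adipoq, but -0.05 for Fabp4 and 0.02 for Cidec. In such bulk RNA, fewer cells of a type and less RNA per cell cannot be told apart.

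Promoter sequences are shown for Fmod, which had the largest difference of the family between day 20 and day 8, and for Aspn, Omd and Ogn, which lie side by side on chromosome 13 and differed in direction. Each runs from 250 bases before to 50 bases after the transcription start in RefSeq (GRCm38.p6), 5′ to 3′, all on the plus strand. Fmod lies at chr1:134037004-134037303, Aspn at chr13:49544193-49544492, Omd at chr13:49582212-49582511 and Ogn at chr13:49607765-49608064. Capitals mark matches on either strand to the motifs searched: the TATA box (spelled TATAAA), the CCAAT box (CCAAT), the AP-1 site (TGANTCA), the C/EBP site (TTGCNNAA), the GC box (GGGCGG) and the Smad element (CAGAC).
Fmod: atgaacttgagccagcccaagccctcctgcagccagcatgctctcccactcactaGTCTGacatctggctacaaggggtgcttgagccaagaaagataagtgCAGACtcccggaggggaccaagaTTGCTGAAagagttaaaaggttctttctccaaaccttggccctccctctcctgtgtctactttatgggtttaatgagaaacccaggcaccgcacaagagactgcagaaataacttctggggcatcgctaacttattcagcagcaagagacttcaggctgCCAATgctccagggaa
Aspn: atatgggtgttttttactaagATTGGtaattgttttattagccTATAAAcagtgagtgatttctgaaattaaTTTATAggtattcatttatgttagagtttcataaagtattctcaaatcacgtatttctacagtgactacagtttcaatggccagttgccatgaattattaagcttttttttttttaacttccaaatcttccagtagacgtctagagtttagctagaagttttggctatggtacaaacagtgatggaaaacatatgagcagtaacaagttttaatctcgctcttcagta
Omd: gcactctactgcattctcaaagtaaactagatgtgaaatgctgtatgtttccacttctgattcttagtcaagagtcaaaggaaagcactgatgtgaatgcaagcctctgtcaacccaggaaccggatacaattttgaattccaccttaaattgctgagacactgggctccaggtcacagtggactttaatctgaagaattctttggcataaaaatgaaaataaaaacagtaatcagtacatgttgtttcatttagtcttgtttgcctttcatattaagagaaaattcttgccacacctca
Ogn: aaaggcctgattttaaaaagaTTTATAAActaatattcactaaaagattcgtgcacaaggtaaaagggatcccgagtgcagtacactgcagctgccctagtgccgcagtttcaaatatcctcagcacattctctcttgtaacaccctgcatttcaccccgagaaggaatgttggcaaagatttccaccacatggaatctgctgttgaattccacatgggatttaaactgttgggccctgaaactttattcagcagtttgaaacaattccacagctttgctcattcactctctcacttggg
The Fmod window held a match to TTGCNNAA at -125, a motif found in 10.8% of all 32851 mouse promoters of this length, matches to CAGAC at -195 and -148, found in 49.6%, and a match to CCAAT at 34 (37.4%). Matches to TATAAA, found in 13.6% of promoters, lay at -207 and -178 in Aspn and, overlapping each other on opposite strands, at -229 and -227 in Ogn. Aspn also held CCAAT at -229, and the Omd window held none of the 6 motifs. The GC content was 31% for Aspn, 37.7% for Omd, 42.3% for Ogn and 51% for Fmod, against a median of 52.7% over all promoters (5th to 95th percentile 36.3% to 73.7%). By contrast the Bgn promoter, at 63.7% GC, held GGGCGG at 3 positions (35.7% of all promoters hold it at least once). A match is a description of letters and no evidence of binding, and no promoter of Dcn or Lum was used here.

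Between day 2 and day 8 the family moved mostly upward. Of 6 members that could be measured, 4 (Dcn, Lum, Ogn and Podn) exceeded their day 2 level by 2-fold or more on day 8, 0 fell below it by as much, and Bgn and Aspn differed by less. Among all 12044 genes measured in that comparison, 13.8% were higher by 2-fold or more and 12.9% lower. Fmod and Omd were not well above background on day 2 but were on day 8, with lower bounds past 2-fold. The members' median difference was 1.66, against -0.06 for all genes.

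Between day 8 and day 20 fewer members passed 2-fold, and the differences ran in both directions. Of 8 members measured, Fmod and Ogn (2 genes) were higher on day 20 by 2-fold or more and 0 were lower, where 3.58% of 12321 genes were higher and 1.74% lower by that much. The members' median was 0.54, against -0.05 for all genes. On day 20 against day 2, 4 of 6 measured members (Dcn, Lum, Ogn and Podn) were higher by 2-fold or more, 1 was lower (Aspn) and Bgn lay between, with 15.5% of 11888 genes higher and 17% lower. The family thus held members that were higher at each later day, members that changed mainly before day 8, and 1 that was lower at each later day.

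**Figure D1:**
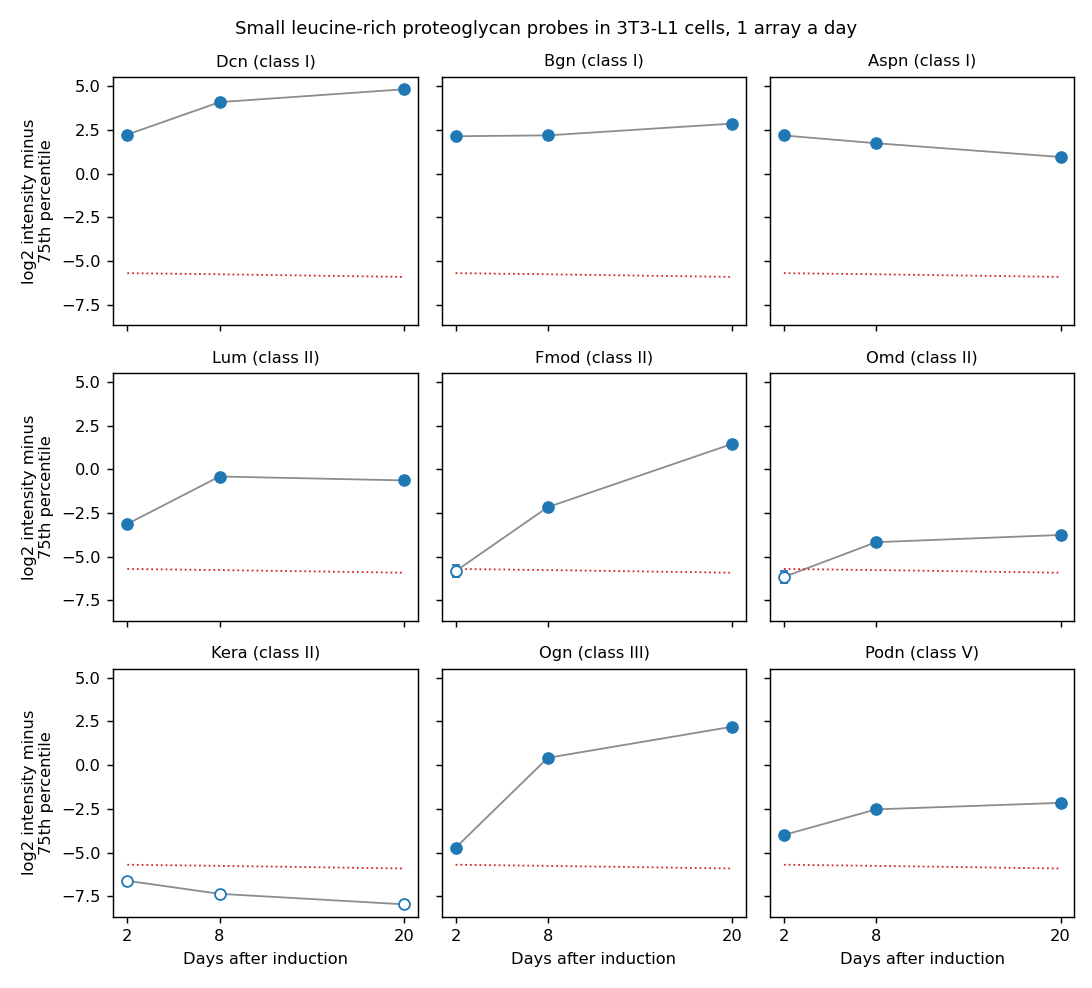
Scaled log2 intensity (vertical axis) of the 9 SLRP probes on day 2, day 8 and day 20 (horizontal axis), 1 array a day. Filled points were well above background and open points were not; bars are the technical SD and the dotted line is the lowest value well above background on each array. Ogn spans -4.73 to 2.20 while Kera stays below the dotted line on all 3 days.

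**Figure D2:**
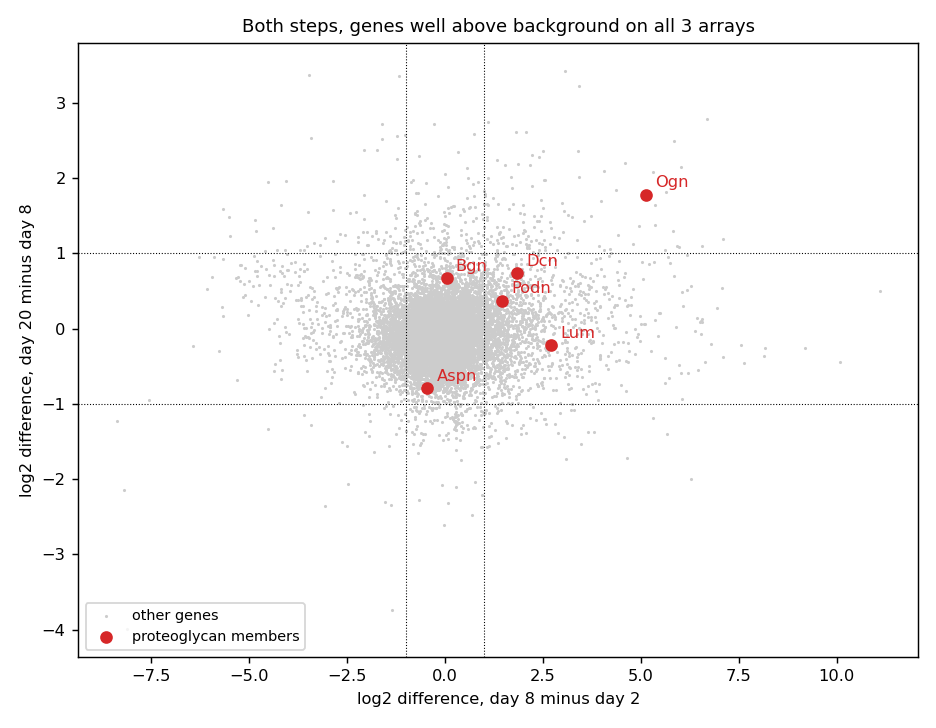
The log2 difference of day 8 minus day 2 (horizontal) against that of day 20 minus day 8 (vertical) for 11810 genes well above background on all 3 arrays, with the 6 such SLRP genes in red and 2-fold marked by dotted lines. Ogn lies past 2-fold on both axes, Dcn, Lum and Podn on the horizontal axis alone, and Bgn and Aspn on neither.

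In class I of the family, which carries chondroitin or dermatan sulfate, the members moved apart. Dcn encodes decorin, which binds collagen and TGF-beta and limits fibril thickness. Its probe had intensities of 3103 on day 2, 10784 on day 8 and 26171 on day 20, or scaled log2 values of 2.23, 4.08 and 4.82. Each later day was thus higher than the one before it. The difference was 1.86 ± 0.063 (technical SD) for day 8 minus day 2, a 3.62-fold higher level, and 0.74 ± 0.067 for day 20 minus day 8, which is 1.66-fold. Day 20 stood 6.02-fold above day 2.

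Bgn encodes biglycan, the closest relative of decorin, which when released from matrix is a ligand of the innate receptors TLR2 and TLR4. Its scaled log2 values were 2.13, 2.18 and 2.86 on days 2, 8 and 20. Days 8 and 2 differed by 0.05 ± 0.067, less than the technical SD, and day 20 exceeded day 8 by 0.67 ± 0.070, or 1.59-fold. Day 20 minus day 2 was 0.72 ± 0.066. It was 1.03 with cyclic loess and 1.41 when arrays were scaled to the spike-in controls, both past 2-fold. Decorin and biglycan transcripts therefore differed most in the first interval, in which Dcn was higher on day 8 and Bgn differed by less than the technical SD.

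Aspn encodes asporin, a relative with a stretch of aspartate in place of the usual chain attachment sites, which binds collagen and TGF-beta. It was the only measured member that was lower at both later days. Scaled log2 values were 2.18 on day 2, 1.73 on day 8 and 0.95 on day 20. The differences were -0.44 ± 0.068 for day 8 minus day 2 and -0.79 ± 0.072 for day 20 minus day 8. Over the whole course Aspn differed by -1.23 ± 0.067, a 2.35-fold lower level on day 20 than on day 2. That last size depends on the scaling: it was -0.97 with cyclic loess and -0.54 when arrays were scaled to the spike-in controls, both short of 2-fold. Day 20 minus day 8 was also smaller with spike-in scaling, at -0.12 against a technical SD of 0.072.

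Class II holds the keratan sulfate members. Fmod encodes fibromodulin, which binds collagen type I, shapes fibril thickness and brings lysyl oxidase to its crosslinking sites. The probe had an intensity of 11.7 on day 2, not well above background, then 142 on day 8 and 2549 on day 20. On the scaled log2 scale the last 2 values were -2.16 and 1.46. Set against the lowest value well above background on day 2, the level was at least 11.6-fold higher on day 8. On day 20 it was at least 143-fold higher. Both bounds depend on the background subtraction, and no normexp value is given for them. Day 20 minus day 8 was 3.62 ± 0.096, or 12.3-fold, which ranked 4 from the top among 12321 genes. Fmod was the member with the greatest measured difference in that interval, and it kept a difference of 3.21 to 4.28 under every alternative scaling and background correction.

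Lum encodes lumican, which orders collagen in the cornea and skin. Its scaled log2 values were -3.12, -0.41 and -0.63 on days 2, 8 and 20. Day 8 stood above day 2 by 2.71 ± 0.129, or 6.55-fold, while day 20 minus day 8 was -0.22 ± 0.081. The sign of that small second difference is not settled, since scaling to the spike-in controls gave 0.44. With normexp correction the differences from day 2 were 2.05 on day 8 and 1.89 on day 20. Lum and its neighbour Dcn were thus both higher on day 8 than on day 2.

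Omd encodes osteomodulin, also called osteoadherin, best known from bone matrix. Its signal was low, with intensities of 9.29 on day 2 (not well above background), 35.4 on day 8 and 68.8 on day 20. Against day 2, the lower bound was 2.89-fold on day 8 and 3.85-fold on day 20. Day 20 minus day 8 was 0.41 ± 0.172, and with normexp background correction it was -0.17, so no direction is given for that interval. Kera encodes keratocan, a proteoglycan of the cornea and tendon. Its probe was printed 10 times on each array and was well above background on 0 spots, with spot intensities of 4.38 to 7.94 on day 2, 2.34 to 10.4 on day 8 and 3.03 to 4.45 on day 20. No order can be read from values at that level.

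Class III was represented by Ogn, which encodes osteoglycin or mimecan, a small proteoglycan of connective tissue that binds collagen and is also found in the circulation. Its intensities were 25.0 on day 2, 849 on day 8 and 4256 on day 20, or scaled log2 values of -4.73, 0.42 and 2.20. Every step was past 2-fold. Day 8 minus day 2 was 5.14 ± 0.176, a 35.3-fold higher level and rank 60 from the top among 12044 genes. The further difference of day 20 minus day 8 was 1.78 ± 0.073, or 3.44-fold. Day 20 stood 122-fold above day 2 and ranked 22 among 11888 genes. The day 2 value lay close to background, and with normexp correction the differences from day 2 were 3.18 on day 8 and 4.83 on day 20.

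Podn encodes podocan, a member of the noncanonical class V first described in the kidney glomerulus. Its scaled log2 values were -4.00, -2.53 and -2.16 on days 2, 8 and 20. Day 8 minus day 2 was 1.47 ± 0.172, or 2.77-fold, and day 20 minus day 8 was 0.37 ± 0.123. Day 20 was 3.58-fold above day 2. The signal was low on all 3 days, and with normexp correction the differences from day 2 were 0.79 on day 8 and 0.97 on day 20, both short of 2-fold.

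The scaling bears on every difference between day 20 and the earlier days. Scaling to 8 spike-in probes moved the median of all genes for day 20 minus day 8 to 0.62, from -0.05 with the 75th percentile, and 6 of 8 members then passed 2-fold upward, as did 2091 of all 12321 genes, against 441 with the 75th percentile. This scaling adds the same amount to every gene in that comparison, so the order of the members cannot change.

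**Figure D3:**
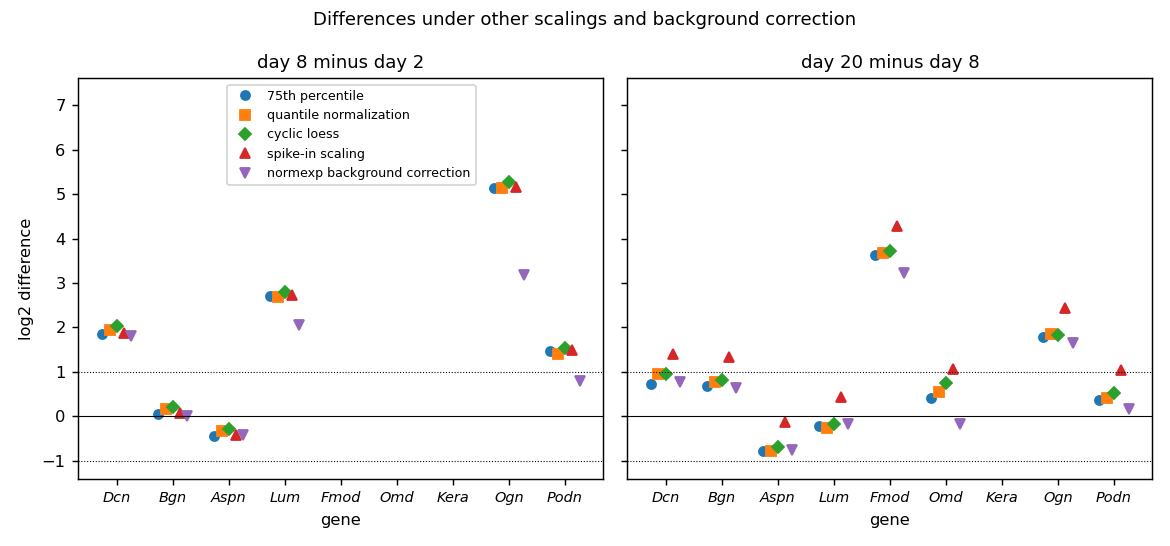
Log2 difference (vertical axis) of each SLRP gene for day 8 minus day 2 (left) and day 20 minus day 8 (right) under 5 settings, with 2-fold marked by dotted lines. Fmod and Ogn exceed 1 under every setting on the right, whereas Lum and Omd have 1 setting each on the other side of 0; genes not measured in a comparison have no symbol.

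Most members sit beside a relative in the genome. In the order of protein-coding genes in RefSeq GRCm38.p6, Dcn, Lum, Kera and Epyc follow each other on chromosome 10, Ecm2, Aspn, Omd and Ogn on chromosome 13, and Optc, Prelp and Fmod on chromosome 1. On chromosome 13 the neighbours did not all move alike. Day 8 minus day 2 was -0.44 for Aspn and 5.14 for Ogn. Omd between them and Ecm2 before them were at least 2.89-fold and 9.10-fold higher on day 8. The next gene after Ogn with a probe, Iars, was lower on day 8 than on day 2 by a difference of -1.12 ± 0.065, and Ecm2 differed by only 0.07 ± 0.126 between day 20 and day 8.

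On chromosome 10, Dcn and Lum were both higher on day 8 than on day 2, whereas Kera and Epyc, which encodes epiphycan of cartilage, were not well above background on any array. Btg1, the nearest gene with a probe before Dcn, had differences of 0.71 ± 0.061 for day 8 minus day 2 and -0.37 ± 0.067 for day 20 minus day 8. On chromosome 1, Fmod was 12.3-fold higher on day 20 than on day 8, where the next gene after it with a probe, Btg2, differed by -0.64 ± 0.077. Optc, which encodes opticin of the eye, was dim on all 3 arrays. Bgn on chromosome X lies between Haus7, which differed by -0.30 ± 0.072 for day 20 minus day 8, and Atp2b3, dim on all arrays. Podn on chromosome 4 lies near Scp2, at 0.37 ± 0.061 for day 8 minus day 2, and Slc1a7, at -0.46 ± 0.347.

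**Figure D4:**
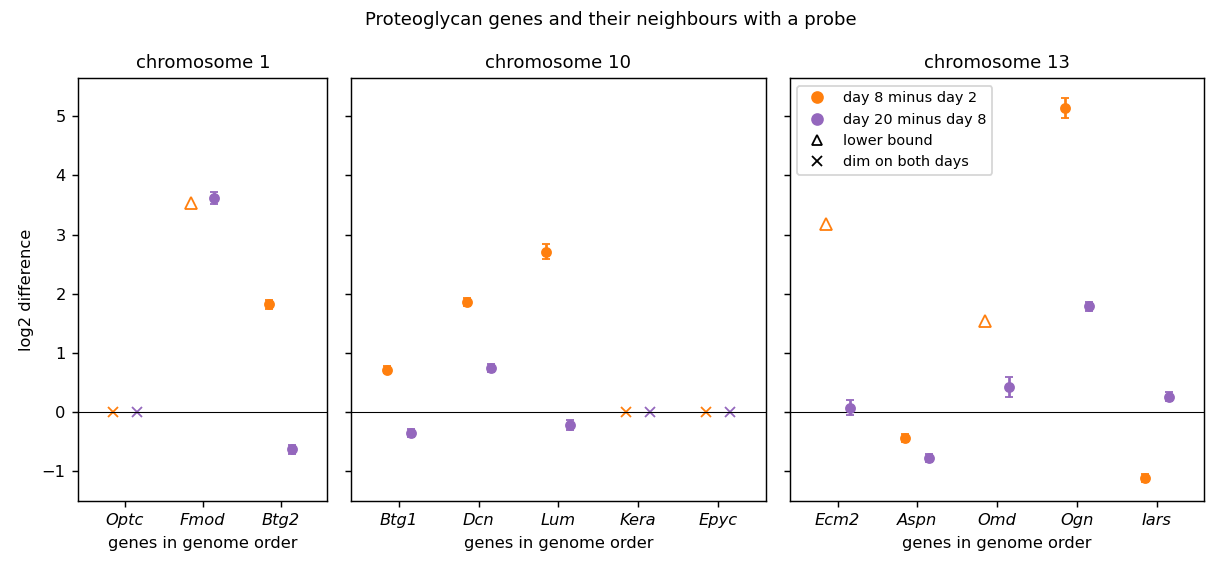
Log2 differences (vertical axis) of SLRP genes and their nearest neighbours with a probe, in genome order (horizontal axis, not to scale), for day 8 minus day 2 and day 20 minus day 8. Filled points are measured with the technical SD, open triangles are lower bounds, and crosses at 0 mark genes dim on both days; on chromosome 13 Aspn and Ogn lie on opposite sides of 0 in both intervals.

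A further 10 SLRP-related genes were listed. Epyc, Optc and Nyx were dim on all 3 arrays, and 4 were measured on both day 8 and day 2. Podnl1, the paralogue of podocan, was higher on day 8 than on day 2 by 3.69 ± 0.201, and Lrrc17, a secreted leucine-rich repeat protein, by 4.23 ± 0.136. Tsku, which encodes tsukushi, a secreted inhibitor of several growth factors, was lower on day 8 by a difference of -2.70 ± 0.160, and Chad, which encodes the integrin-binding chondroadherin, differed by 0.53 ± 0.212. Igfals, the partner of IGF-binding proteins in serum, had a bound of at least 32.6-fold for day 8 over day 2 and a further 1.03 ± 0.077 for day 20 minus day 8, the only listed gene past 2-fold in that later interval. Chadl was not well above background on day 2, with a bound of 1.23-fold on day 8. Between day 20 and day 8, Tsku differed by 0.56 ± 0.178, Podnl1 by 0.52 ± 0.084, Lrrc17 by 0.22 ± 0.073, Chadl by 0.60 ± 0.312 and Chad by -0.84 ± 0.224.

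Several of the collagens and collagen partners that SLRPs bind passed 2-fold. Of 22 listed fibrillar collagens and fibril partners, 17 were measured in each comparison. Past 2-fold, 5 were higher and 1 lower on day 8 against day 2, and 3 were higher and 0 lower on day 20 against day 8; the medians were 0.47 and 0.18. On day 20 against day 2, 7 of the 17 were higher and 0 lower. The shares of all genes in these comparisons were 13.8%, 3.58% and 15.5% higher and 12.9%, 1.74% and 17% lower. Col1a1 and Col1a2 were under 2-fold on day 8 against day 2 (0.77 and 0.97). They were also under it on day 20 against day 8 (0.66 and 0.75), but past it on day 20 against day 2 (1.42 and 1.72). Comp, which links collagen fibrils in cartilage and tendon, was higher on day 8 than on day 2 by 3.68 ± 0.139, and Thbs2, a matricellular thrombospondin, by 2.71 ± 0.134. Dpt encodes dermatopontin, a direct partner of decorin, and ran the other way: it was lower on day 8 than on day 2 by a difference of -2.84 ± 0.033 and higher on day 20 than on day 8 by 1.96 ± 0.034. Col11a1, a chain of the minor fibrillar collagen that starts fibrils, was 1.45 ± 0.120 higher on day 20 than on day 8.

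Genes that build the sugar chains included some that were higher and some that were lower at the later days. Of 25 genes for the linker and for chondroitin or dermatan sulfate, 19 were measured. Past 2-fold, 3 were higher and 3 lower on day 8 than on day 2, and 1 higher with 0 lower on day 20 than on day 8. The counts for day 8 against day 2 lay near the 13.8% higher and 12.9% lower of all genes. For day 20 against day 8 the shares of all genes were 3.58% higher and 1.74% lower. Csgalnact1, which starts a chondroitin chain, was higher on day 8 than on day 2 by 2.86 ± 0.152 and higher on day 20 than on day 8 by 1.04 ± 0.079, which became 0.80, short of 2-fold, with normexp correction. Pxylp1, a phosphatase of the linker, was higher on day 8 by 1.84 ± 0.284, and 0.69 with normexp correction. Lower on day 8 than on day 2 were Chst11, which adds sulfate to chondroitin, at -2.15 ± 0.071, and Dse, the epimerase that turns chondroitin into dermatan sulfate, at -1.68 ± 0.098.

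For keratan sulfate and sulfate supply, 14 of 15 listed genes had a probe and 11 were measured on day 8 against day 2, with 2 higher and 3 lower past 2-fold (13.8% and 12.9% of all genes) and a median of -0.45. Papss2, which makes the sulfate donor, was higher on day 8 than on day 2 by 3.06 ± 0.070, and B4galt1, a galactosyltransferase, by 1.00 ± 0.064. B3gnt2, which extends the lactosamine backbone, was lower by a difference of -2.36 ± 0.070, as was Slc26a2, a sulfate transporter, at -1.26 ± 0.106. On day 20 against day 8, 1 of 11 was higher (B4galt4, 1.11 ± 0.153) and 0 lower, against 3.58% and 1.74% of all genes. With normexp correction Slc26a2 was at -0.87, B4galt1 at 0.97 and B4galt4 at 0.49, all short of 2-fold.

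Among 25 receptors and growth factor partners, 16 were measured on day 8 against day 2, with 4 higher and 1 lower past 2-fold, where 13.8% of all genes were higher and 12.9% lower. Tlr4 was higher on day 8 than on day 2 by 2.25 ± 0.089. Tlr2 had scaled values of -3.80, -2.58 and -0.85 on days 2, 8 and 20, so that both biglycan receptors stood higher at the later days than on day 2. Tgfb2, a ligand bound by decorin, was higher on day 8 than on day 2 by 3.12 ± 0.094, and Tgfb3 was lower by a difference of -1.39 ± 0.023. Of 17 measured on day 20 against day 8, 3 were higher and 0 lower (3.58% and 1.74% of all genes). They include Ccn2, connective tissue growth factor, at 2.78 ± 0.298, which became 0.99 with normexp correction, and Ccn4, a secreted relative of Ccn2, at 2.06 ± 0.090.

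Enzymes that cut SLRPs or crosslink collagen had the highest count of the lists for day 20 against day 8. Of 18 listed, 16 were measured. Among these, 8 passed 2-fold upward and 0 downward, with a median of 1.00, against 3.58% and 1.74% of all genes. Some passed narrowly, among them Adamts4 (1.06), Adamts1 (1.11) and Mmp3 (1.14). Mmp3 and Loxl4 (1.25) had low day 8 values, of -4.85 and -5.03. Loxl3, of the lysyl oxidase family, was higher on day 20 than on day 8 by 2.61 ± 0.110. Mmp13, a collagenase that also cleaves fibromodulin, was higher by 2.19 ± 0.127. Lox itself had scaled values of -3.10, -1.10 and 0.54 on days 2, 8 and 20, each later day higher. On day 8 against day 2 the 12 measured genes split into 4 higher, among them Adamts5, an aggrecanase, at 2.30 ± 0.175, and 3 lower, among them Mmp2 at -1.24 ± 0.068 and Bmp1, the procollagen C-proteinase that also processes biglycan, at -1.18 ± 0.067. On day 20 against day 2, 5 of 12 measured were higher and 0 lower past 2-fold, against 15.5% and 17% of all genes. Their median was 0.14, and 4 more had lower bounds past 2-fold. Mmp2 was 1.14 ± 0.072 higher on day 20 than on day 8, and differed by -0.09 ± 0.066 from day 2.

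**Figure D5:**
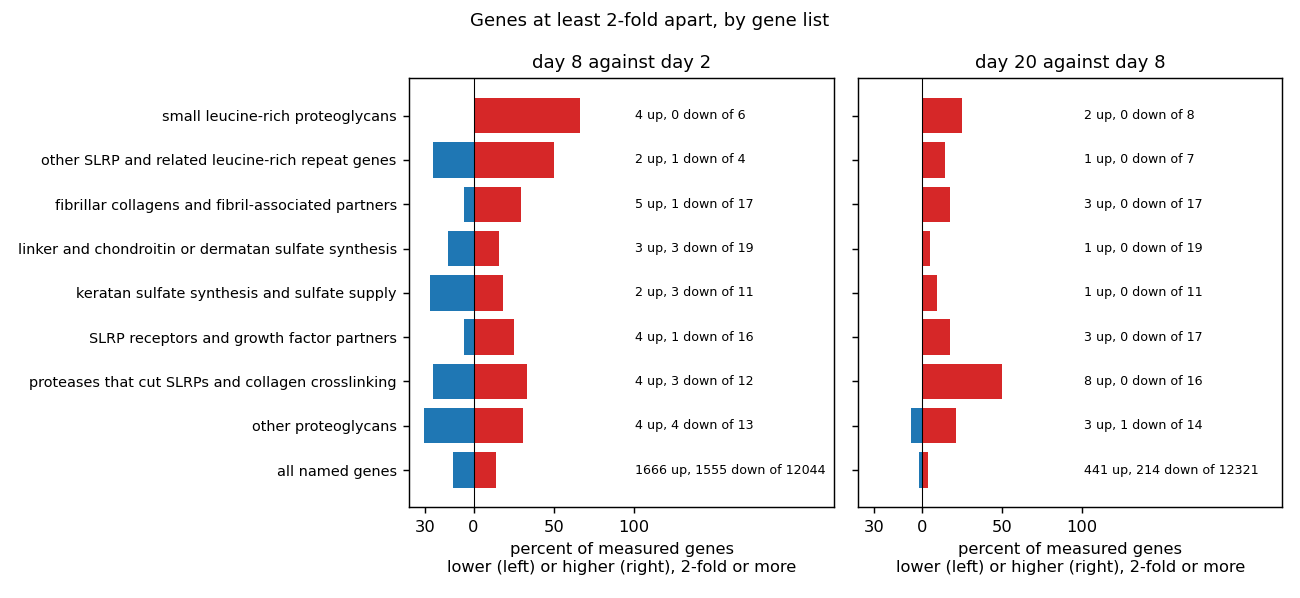
Percent of measured genes in each list that were at least 2-fold higher (red, right) or lower (blue, left) on day 8 against day 2 and on day 20 against day 8, with the counts printed beside the bars and all named genes in the bottom row. On day 20 against day 8 the list of proteases and crosslinking enzymes has 8 higher of 16, against 3.58% of all named genes.

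Markers of other cell types differed between the days in several ways, and the summed level of the myofibroblast list was higher at each later day. The summed level of 7 myofibroblast and smooth muscle markers was 0.564, 10.4 and 34.2 times the 75th percentile on days 2, 8 and 20, with 5, 6 and 5 of 7 well above background. For day 20 minus day 8, 3 of the 5 measured passed 2-fold upward: Acta2 (1.82), Tagln (1.13) and Myl9 (2.15). None passed it downward, where 3.58% of all genes were higher and 1.74% lower. Des differed by -0.02 and Myh11 by -0.23, Lmod1 was dim on day 20, and Cnn1 was dim on every array. The 12 preadipocyte and fibroblast markers summed to 230, 142 and 252, with 10, 10 and 11 well above background. S100a4 weighs heavily in these sums, with values of 6.99, 4.91 and 5.84 on days 2, 8 and 20. On day 8 against day 2, 2 of 9 measured were higher and 2 lower past 2-fold (13.8% and 12.9% of all genes). On day 20 against day 2, 6 of 10 were higher and 2 lower (15.5% and 17% of all genes). Bone markers summed to 0.476, 1.13 and 5.40, with 2 of 7 well above background, Alpl and Spp1, while the defining Runx2, Sp7 and Ibsp were dim. Spp1 had scaled values of -3.39, 0.02 and 2.37 on days 2, 8 and 20. Alpl had -1.59, -3.57 and -2.46, lower at both later days than on day 2. Of 6 tendon markers 3 were well above background, with sums of 1.91, 1.15 and 1.37 and Tnmd, Thbs4 and Kera dim. Of 7 cartilage markers 2, 3 and 3 were well above background, with sums of 0.668, 1.47 and 1.69 and Col2a1, Acan and Matn1 dim. Comp had the highest cartilage value on days 8 and 20 (0.19 and 0.04). Sox9 was lower on day 8 than on day 2 (-1.25) and higher on day 20 than on day 8 (1.47). For macrophages 3 of 7 were well above background, with sums of 9.02, 11.5 and 6.21 and Adgre1, Mrc1 and C1qa dim. Itgam had the highest macrophage values, at 3.05, 3.30 and 2.17 on days 2, 8 and 20. Cd14 was higher on day 8 than on day 2 by 2.96, and Csf1r differed by -0.01. The part of these cells in the SLRP levels was not tested.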

How the data were processed

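The deposited scanner files hold an intensity for each spot of 3 single-colour Agilent arrays, with background-subtracted processed signals and detection marks. The submitters' processing notes name Agilent Feature Extraction, version 10.7.1.1. A deposited log2 table of the same arrays equals log2 intensity plus a constant for each array (100% of 39427 probes within 0.01; constants -9.37, -9.31 and -9.86; column medians -4.80, -4.69 and -4.89 on days 2, 8 and 20), close to the 75th percentile scaling used here. Control spots and 102 to 120 outlier spots an array were left out, spots of a probe were averaged on the log2 scale, and 26579 of 39429 probes were named through RefSeq accessions, giving 20142 genes by their brightest probe. Day sets the groups, with 1 array each. The members and lists were chosen with earlier results of these data known. Named genes are all members, all listed relatives, up to 2 genes past 2-fold in each direction for each list and comparison, the nearest neighbours in the genome, and the 3 genes of nearest pattern for each member, of which 1 is not reported here. Some other listed genes and markers are named for context. Alternatives were normexp (offset 50, on median signals), the deposited table, quantile and cyclic loess normalization (limma 3.58.1, R 4.3.3), 8 spike-in probes, other filters and the mean of a gene's probes. Scripts (Python 3.11.15) were tested on simulated data. The number of arrays limits the precision.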

Additional observations from a re-analysis of the deposited data

How the results depend on the processing

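Each of the 155 differences of members recomputed under the alternatives kept its direction where the main value was past 2-fold; 108 moved by less than 1 technical SD and 47 by more. Members at least 2-fold higher on day 20 against day 8 numbered 2, but 6 with spike-in scaling. There was 1 with a stricter filter on dim probes, which tests fewer genes. For day 8 against day 2 such members numbered 4, but 3 with normexp or the stricter filter and 6 with no filter. For day 20 against day 2 they numbered 4, but 5 with cyclic loess or spike-in scaling, 6 with no filter and 3 with normexp or the stricter filter. Members at least 2-fold lower on day 20 against day 2 numbered 1 (Aspn), but 0 with cyclic loess or spike-in scaling and 2 with no filter, which adds Kera, dim on all arrays; causes beyond the filters were not tested. Over all genes, day 20 against day 8 had 441 higher and 214 lower, 206 and 100 with normexp, 611 and 129 with cyclic loess, 2091 and 21 with spike-ins, 694 and 1315 with no filter, and 196 and 106 with the stricter filter. The share of higher among those calls was 67.3%, but 82.6% with cyclic loess, 99.0% with spike-ins and 34.5% with no filter. Day 20 against day 2 had 1840 higher and 2017 lower (47.7% higher), but 2437 and 1318 with cyclic loess (64.9%), 3806 and 703 with spike-ins (84.4%), and 3212 lower with no filter. Higher genes on day 8 against day 2 numbered 1666, but 2616 with no filter. Of listed genes outside the family named by the rule given above, not for context, 0 changed sign under another scaling or normexp. In at least 1 such setting, 3 of 25 fell short of 2-fold for day 8 against day 2. For day 20 against day 8 it was 5 of 12, and for day 20 against day 2 it was 4 of 21. No paired analysis was possible because each day had 1 array. The technical SD widens near background, which limits Omd and Podn and the day 2 value of Ogn.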

Other observations

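Other proteoglycans, outside the leucine-rich family, moved in both directions. Of 25 listed, 13 were measured on day 8 against day 2, 4 higher and 4 lower past 2-fold, where 13.8% of all genes were higher and 12.9% lower. Sdc3, a heparan sulfate syndecan of the cell surface, was higher on day 8 than on day 2 by 2.10 ± 0.168, and Gpc4, a glypican, by 1.99 ± 0.101. Vcan encodes versican, a large chondroitin sulfate proteoglycan of early matrix, and was lower on day 8 by a difference of -2.80 ± 0.069. Prg4, which encodes the lubricating proteoglycan of joints, was lower on day 8 than on day 2 (-3.42 ± 0.131) and lower on day 20 than on day 8 (-1.28 ± 0.217, or -0.62 with spike-in scaling and -0.79 with normexp). Of 14 measured on day 20 against day 8, 3 were higher and 1 lower (3.58% and 1.74% of all genes), the higher ones including Ncan at 1.42 ± 0.154, 0.54 with normexp, and Gpc1 at 1.28 ± 0.071.

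Taking both intervals together, among 11810 genes well above background on all arrays, genes near to each member were named by the distance between their pairs of log2 differences, which rests on 3 arrays. Near to Dcn were Svep1 (0.034) and Ccl7 (0.053), and nearest to Lum were Kiss1r (0.022), Obsl1 (0.054) and Acvr2b (0.063). For Ogn the nearest, Oas1a, lay 0.269 away, followed by Psmb9 (0.347) and Pla2g2e (0.460). Bgn had Ank, Vmn2r3 and Gadd45a within 0.035, and Aspn had Dvl3 (0.012), Rps13 (0.019) and Ankrd16 (0.031). Podn had Dlx4 (0.0316), Wnk4 (0.0339) and Cyp2c29 (0.0352). Fmod, Omd and Kera were not well above background on every array and have no such distance.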
